A study of Mus musculus with 12 samples.

Results

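The genes described here encode glycolysis, its glucose and lactate transporters, the entry of pyruvate into mitochondria, the pentose phosphate pathway, and Hif1a and Myc, transcription factors that can switch many of these genes on. The list holds 33 genes, grouped by pathway, and was drawn up with earlier results of these data known. Of these, 28 had a microarray probe set of their own, out of 18193 genes measured that way, and each was read from its brightest such probe set. Gpi1, Gapdh, Eno1, G6pdx and Mpc2 had none and are not described; Gapdh is named by 3 probe sets that also name other genes.

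RNA came from CD4+ T cells of the spleen of mice aged 6 weeks, with 3 mice pooled per array and 3 independent pools per group, 12 arrays in all. Regulatory T cells (Treg, sorted as CD25+) and conventional T cells (Tconv, CD25-) were taken from NOD mice and from B6.H2g7 mice, written B6g7 here. NOD is a strain that develops autoimmune diabetes. B6g7 mice carry the NOD-type MHC haplotype H2g7 on a B6 background. H2g7 was thus shared by Treg and Tconv of both strains, and the labels name no other allele or agent. Per the labels, cells were enriched magnetically and double-sorted as CD4+ cells lacking CD8a, CD11b, CD69 and B220. Restaining found Foxp3 in 94%, 96% and 96% of the cells of the 3 B6g7 Treg pools and in 89%, 95% and 95% of those from NOD.

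Glycolysis takes up glucose through transporters of the Slc2a family, traps it by phosphorylation, splits it and turns it into pyruvate. Pyruvate is either reduced to lactate, which leaves the cell through monocarboxylate transporters, or enters mitochondria, where pyruvate dehydrogenase feeds it to respiration unless pyruvate dehydrogenase kinases switch that enzyme off. The pentose phosphate pathway branches off after the trapping step and supplies NADPH and ribose. Conventional T cells are known to raise glycolysis when they are activated, and mouse Treg cells to lean more on mitochondrial oxidation.

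The groups carried the markers of their labels. Levels are given as log2 intensity. Foxp3, the lineage factor of Treg cells, ranged from 10.69 to 11.22 in the 3 B6g7 Treg arrays against 5.58 to 5.83 in Tconv, and from 10.67 to 11.26 against 5.57 to 6.24 in NOD. No T cell marker of 7 was dim (a group mean under 5.28, the 25th percentile of probe set means); of these Cd5 rose (0.66) and Cd4 fell (-0.40) in Treg averaged over strains. All 5 Treg markers rose in Treg in both strains. Among them, Il2ra encodes CD25, on which the cells were sorted, so its rise is no separate check of the labels. In NOD against B6g7 Tconv 2 of the 5, Ikzf2 and Gpr83, were higher. The summed Treg marker intensity was 869.7 to 1084 in B6g7 Tconv and 1369 to 1644 in NOD Tconv. Among 4 measured NK cell markers 1, Klrd1, fell in Treg (log2 change -3.98 averaged over strains) and none was dim in any group. The neutrophil marker Elane also lay above 5.28, at 6.93 to 7.58 over all arrays, so not being dim does not show expression. The summed NK marker intensity was 1233 to 1469 in B6g7 Tconv, 442 to 561 in B6g7 Treg, 618 to 667 in NOD Treg and 945 to 1359 in NOD Tconv. Cd79b of 6 B cell markers rose (0.79) and Fcgr3 of 7 monocyte and macrophage markers fell (-0.67), with summed intensities of 700 to 890.2 and 624 to 783 over all groups. None of 2 CD8 T cell, 5 dendritic cell, 5 neutrophil and 7 erythroid and platelet markers passed limma's test between Treg and Tconv, and 0 of them had an unadjusted p under 0.05 averaged over strains. The part of such cells in the results below was not tested. The actin control's 3' minus 5' difference, which grows with shortened RNA, ranged from 2.66 to 4.70 on the log2 scale and was lowest in the array numbered 1 of B6g7 Treg (2.66), NOD Tconv (2.97) and NOD Treg (3.29). With 3 arrays in each group, their number limits what can be resolved.

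Between Treg and Tconv, 7 of the 28 genes differed, in both directions. A gene was called where its p from limma, adjusted over all probe sets (Benjamini-Hochberg), was under 0.05. Each change is the Treg mean minus the Tconv mean on the log2 scale, ± the standard error (SE) of the fit. In B6g7, 6 of 28 were called (21.4%; 4.55% of all genes). The 4 that rose in Treg were the glucose transporter Slc2a3, the hexokinase Hk2, the enolase Eno2 and the lactate dehydrogenase Ldhb (2.84% of all genes rose), and the 2 that fell were the kinase Pdk1 and the regulator Pfkfb4 (1.7% fell). In NOD, Slc2a3, Eno2 and Ldhb rose and none fell, which makes 3 of 28 or 10.7%, where 4.38% of all genes were called, 2.86% upwards and 1.52% downwards. There, 10 of the 28 had an unadjusted p under 0.05. The share of all genes under this unadjusted cut-off was not counted, so such counts, here and elsewhere, have no background beside them. In NOD, arrays of the same replicate number deviated together, and with that number as a block Slc2a1 (0.65, adjusted p = 0.00981) and Aldoa (-0.43, adjusted p = 0.0386) were called there as well, 5 in all. Averaged over both strains, 7 of 28 (25%) were called, against 7.5% of all genes: the same 4 rose (4.46% of all genes did) and Pdk1, Pfkfb4 and the mutase Pgam1 fell (3.03% of all genes did). The median change of the 28 was 0.09 in B6g7, 0.01 in NOD and 0.04 averaged, beside 0.00, -0.02 and -0.01 over all genes. In sorted bulk samples, fewer cells that express a gene and less RNA per cell cannot be told apart. The B6g7 and NOD comparisons share no arrays, but the average uses the arrays of both.

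**Figure D1:**
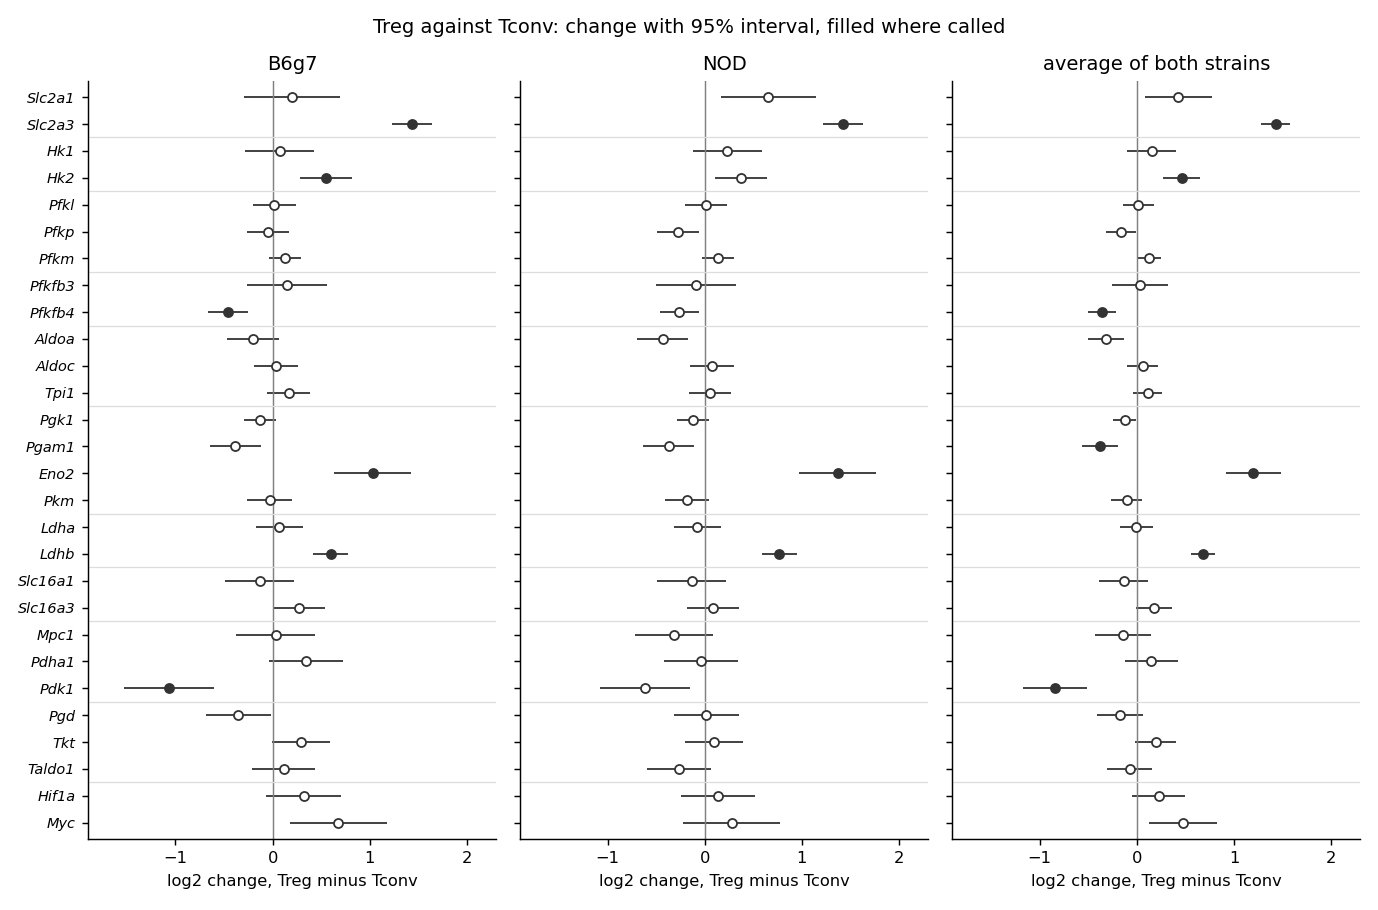
Log2 change from Tconv to Treg (x axis) for each of the 28 measured genes (y axis, ordered by pathway step) in B6g7, in NOD and averaged over strains. Points are the fitted changes, bars their 95% intervals without correction for multiple tests, and filled points the called genes: Slc2a3, Eno2 and Ldhb lie to the right in all panels, and most other genes lie near 0.

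Slc2a3, which encodes the high-affinity glucose transporter GLUT3 (chr6:122727809-122802363 on GRCm38.p6), showed the largest rise of the 28 genes in B6g7, in NOD and on average. Its log2 intensity in the B6g7 Tconv arrays was 10.36, 10.26 and 10.30, and in the B6g7 Treg arrays 11.71, 11.74 and 11.76. In NOD it was 10.13, 10.24 and 10.47 in Tconv and 11.66, 11.64 and 11.80 in Treg. Every Treg array lay above every Tconv array by more than the whole spread of either group. The transcript was 2.70-fold higher in Treg in B6g7 (1.43 ± 0.10 on the log2 scale, adjusted p = 1.56e-06, n = 3 per group in limma's fit) and 2.68-fold in NOD (1.42 ± 0.10, adjusted p = 1.92e-06). The change differed between strains by -0.01, with a 95% interval from -0.31 to 0.29. The call held without each of the 12 arrays in turn. Of the other 3 probe sets for Slc2a3, 1455898_x_at rose alike (1.49 averaged over strains, adjusted p = 7.18e-07), while 1421924_at (0.09) and 1427770_a_at (-0.04), with means over all arrays of 4.43 and 5.74, did not pass. The brightest set, 1437052_s_at, has a suffix that Affymetrix gives to probes able to match further transcripts, as does the x set. Among the 28 genes, the sets used for Aldoa, Pgk1, Ldhb, Pgd and Tkt carry the x suffix too.

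Slc2a1, which encodes GLUT1, the transporter that activated T cells are known to raise, did not pass: its change was 0.20 ± 0.23 in B6g7 and 0.65 ± 0.23 in NOD (adjusted p = 0.842 and 0.221). In NOD Treg its arrays stood at 8.37, 9.16 and 9.16, and in NOD Tconv at 7.89, 8.28 and 8.57, so the groups overlapped. The low NOD Treg array, numbered 1, also had that group's lowest actin difference (3.29 against 4.70 and 4.48) and lowest Foxp3+ share (89%). The NOD Tconv array numbered 1 was likewise its group's lowest in Slc2a1 (7.89) and in the actin difference (2.97 against 3.79 and 4.25). Whether these traits bear on Slc2a1 was not tested. Without NOD Treg array 1 alone the NOD change was 0.92 (adjusted p = 0.027). The change averaged over strains was then 0.56 (adjusted p = 0.0268, in place of 0.43 and 0.196). Without all 4 arrays numbered 1 the NOD change was 0.74 (adjusted p = 0.0158) and the averaged change 0.55 (0.00661). When the actin difference entered the fit of all arrays as a covariate, Slc2a1 rose by 0.45 in NOD (adjusted p = 0.0202) and by 0.36 averaged (0.00449). Its 2 other probe sets, 1426599_a_at and 1426600_at, did not pass, with changes of 0.23 and 0.34 in B6g7 and of 0.24 and 0.14 in NOD.

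Hk2, the inducible hexokinase that traps glucose in the cell (chr6:82725025-82774454), was modestly higher in Treg. In B6g7 its arrays stood at 6.91, 6.65 and 6.41 in Tconv and at 7.11, 7.19 and 7.32 in Treg, and in NOD at 6.91, 6.81 and 6.77 against 7.07, 7.25 and 7.28. The groups did not overlap in either strain. Hk2 was 1.46-fold higher in B6g7 Treg (0.55 ± 0.12, adjusted p = 0.0258) and 1.38-fold averaged over strains (0.46 ± 0.09, adjusted p = 0.00509); in NOD the change of 0.37 ± 0.12 did not pass (adjusted p = 0.188; 0.0289 with array weights, which give arrays far from their group less influence). The B6g7 call ended without Tconv array 2 (adjusted p = 0.0919) or 3 (0.0847), or without Treg array 2 (0.0738) or 3 (0.11), and in a fit of the 6 B6g7 arrays alone (0.136), while the averaged call held without each of the 12 arrays. Hk1, the constitutive hexokinase, changed by 0.15 ± 0.12 averaged over strains and did not pass in any comparison.

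**Figure D2:**
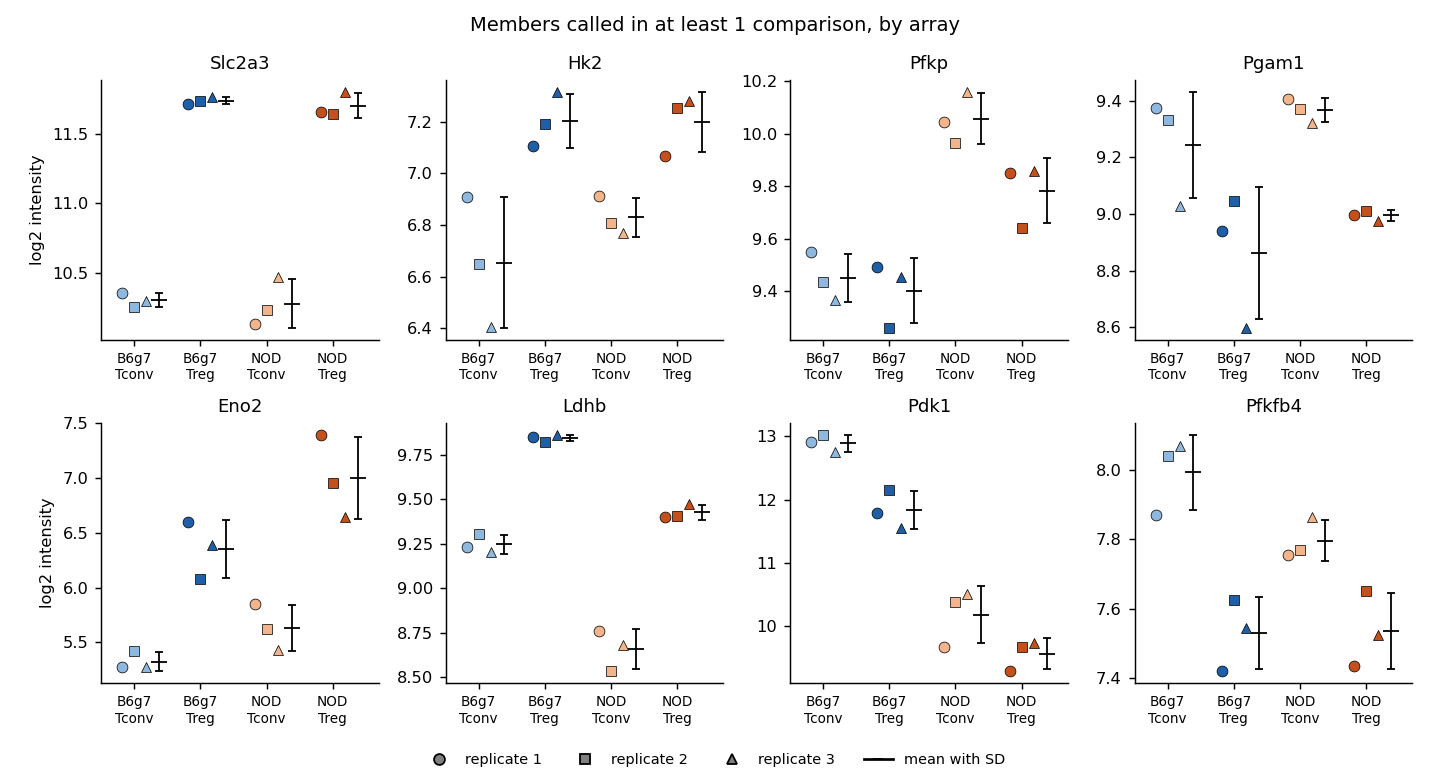
Log2 intensity (y axis, a separate range per panel) in each of the 12 arrays for the 8 genes called in at least 1 comparison, by group (x axis). Symbols mark the replicate number and bars the mean with SD of 3 arrays; Slc2a3, Eno2 and Ldhb are higher in the Treg arrays of both strains, and Pdk1 is lower in every NOD array than in every B6g7 array.

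From phosphofructokinase to triose phosphate, none of the 6 measured enzymes was called by limma between Treg and Tconv, and 3 of them, Pfkp, Pfkm and Aldoa, had an unadjusted p under 0.05 averaged over strains. The phosphofructokinase chains Pfkl, Pfkp and Pfkm changed by 0.02 ± 0.07, -0.16 ± 0.07 and 0.13 ± 0.05. Aldoa, the widely expressed form of aldolase, was at -0.32 ± 0.09 with an adjusted p of 0.0503. Its arrays ran from 11.04 to 11.30 in B6g7 Tconv and 10.76 to 11.14 in B6g7 Treg, which overlap, and from 11.21 to 11.42 in NOD Tconv and 10.71 to 11.01 in NOD Treg, which do not. Without B6g7 Treg array 3 the averaged change was -0.37 (adjusted p = 0.0208) and without NOD Treg array 3 -0.35 (0.0467). With all arrays kept it passed, between -0.29 and -0.35, with array weights (adjusted p = 0.0184), the actin covariate (0.00606), median centring (0.0457), the filter on dim probe sets (0.0463), the mean of its probe sets (0.00267) and the replicate block (0.0215). All 4 other Aldoa probe sets had a lower mean in Treg, between -0.31 and -0.42, and 2 passed, 1416921_x_at (adjusted p = 0.0391) and 1433604_x_at (0.0224). These 4 sets and the brightest one all carry the x suffix, so the limit given for Slc2a3 applies to each. Aldoc (0.06 ± 0.07) and the triose phosphate isomerase Tpi1 (0.11 ± 0.07) did not pass.

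Pfkfb3 and Pfkfb4 encode bifunctional enzymes that make and remove a fructose bisphosphate that activates phosphofructokinase. Pfkfb4 (chr9:108988272-109032236) stood at 7.87, 8.04 and 8.07 in B6g7 Tconv and at 7.42, 7.63 and 7.54 in B6g7 Treg. In NOD it was at 7.76, 7.77 and 7.86 in Tconv and at 7.43, 7.65 and 7.52 in Treg, without overlap in either strain. It fell by 0.46 in B6g7 Treg (SE 0.09, adjusted p = 0.0149) and by 0.36 averaged over strains (SE 0.07, adjusted p = 0.00453); the NOD change, -0.26 ± 0.09, did not pass (adjusted p = 0.264). Without B6g7 Tconv array 2 or 3, or Treg array 1, the B6g7 adjusted p was 0.0732, 0.0575 and 0.0649; it was 0.0914 in a fit of the 6 B6g7 arrays alone and 0.0756 without the 4 arrays numbered 1. Pfkfb3 changed by 0.03 ± 0.13 averaged over strains, which did not pass.

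In the lower part of glycolysis, Eno2, an enolase best known from neurons, rose in Treg of both strains from a low level (chr6:124760053-124769673). Its arrays stood at 5.27, 5.42 and 5.28 in B6g7 Tconv and at 6.60, 6.07 and 6.38 in B6g7 Treg. In NOD they stood at 5.85, 5.62 and 5.43 in Tconv and at 7.40, 6.96 and 6.65 in Treg. No Treg array overlapped the Tconv arrays of its strain, and the B6g7 Tconv mean, 5.32, was just above dim. The rise was 2.04-fold in B6g7 (1.03 ± 0.18, adjusted p = 0.00579) and 2.58-fold in NOD (1.37 ± 0.18, adjusted p = 0.000701), and held without each of the 12 arrays. Eno2 has 1 probe set of its own.

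Pgam1, the phosphoglycerate mutase (chr19:41911871-41918665), went the other way. Its arrays stood at 9.37, 9.33 and 9.03 in B6g7 Tconv against 8.94, 9.05 and 8.60 in Treg, which overlap, and at 9.40, 9.37 and 9.32 in NOD Tconv against 9.0, 9.01 and 8.98 in Treg, which do not. Averaged over strains it fell by 0.38 (SE 0.09, adjusted p = 0.0191), with -0.38 in B6g7 and -0.37 in NOD, neither of which passed on its own with all 12 arrays in the fit; B6g7 did with array weights (adjusted p = 0.0462) and NOD in a fit of its own 6 arrays (0.0454). The call ended without B6g7 Tconv array 1 (adjusted p = 0.0555) or 2 (0.0578), without NOD Treg array 3 (0.0503), or without the 4 arrays numbered 1 (0.13). Pgk1, the phosphoglycerate kinase that yields ATP, and Pkm, the pyruvate kinase, changed by -0.13 ± 0.05 and -0.11 ± 0.07 and did not pass.

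Lactate dehydrogenase is a tetramer of A chains, known to favour making lactate, and B chains, known to favour its oxidation. The B chain gene, Ldhb (chr6:142490249-142507957), rose in Treg: its arrays stood at 9.23, 9.31 and 9.20 in B6g7 Tconv and at 9.85, 9.82 and 9.86 in B6g7 Treg. In NOD all were lower, at 8.76, 8.53 and 8.68 in Tconv and at 9.40, 9.41 and 9.47 in Treg. The 4 groups did not overlap at all. Ldhb was 1.51-fold higher in Treg in B6g7 (0.60 ± 0.08, adjusted p = 0.000808) and 1.70-fold in NOD (0.77 ± 0.08, adjusted p = 0.000106), and both calls held without each of the 12 arrays. Its 3 other probe sets rose as well, by 0.51, 0.86 and 0.54 averaged over strains, all called. In B6g7 alone 1455235_x_at, at 0.45, did not pass (adjusted p = 0.0647). That set and the brightest, 1448237_x_at, carry the x suffix described for Slc2a3, while 1416183_a_at and 1434499_a_at do not. The A chain gene, Ldha, changed by 0.07 ± 0.11 in B6g7 and -0.08 ± 0.11 in NOD, and the 95% interval of its averaged change was -0.18 to 0.17, beside 0.56 to 0.81 for Ldhb; the difference between the genes was not tested.

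At the entry of pyruvate into mitochondria, Pdk1 (chr2:71873215-71903858), a kinase that switches pyruvate dehydrogenase off, was lower in Treg and, by far more, in NOD. Its arrays stood at 12.91, 13.02 and 12.75 in B6g7 Tconv and at 11.78, 12.15 and 11.55 in B6g7 Treg. In NOD Tconv they stood at 9.65, 10.37 and 10.5 and in NOD Treg at 9.28, 9.67 and 9.72. Treg and Tconv did not overlap in B6g7 and overlapped in NOD through Tconv array 1. Pdk1 was 2.09-fold lower in Treg in B6g7 (-1.06 ± 0.21, adjusted p = 0.0135) and 1.79-fold averaged over strains (-0.84 ± 0.15, adjusted p = 0.00368); the NOD change, -0.62 ± 0.21, did not pass (adjusted p = 0.221). The B6g7 adjusted p was 0.0532 without Tconv array 1, 0.07 without Tconv array 2 and 0.0681 without Treg array 3, and the NOD change was -0.88 (0.0234) without Tconv array 1. The 3 other Pdk1 probe sets were also called lower in Treg averaged over strains (-0.91, -0.88 and -0.69, 1434974_at with -0.88 being dim in NOD), and 1423748_at passed within NOD too (-0.82, adjusted p = 0.0218). Pdha1, a chain of pyruvate dehydrogenase (0.15 ± 0.12), Mpc1, a subunit of the mitochondrial pyruvate carrier (-0.14 ± 0.13), and the lactate carriers Slc16a1 (-0.13 ± 0.12) and Slc16a3 (0.18 ± 0.09, dim in 3 of 4 groups) did not pass between Treg and Tconv.

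The 3 measured pentose phosphate enzymes, Pgd, Tkt and Taldo1, did not pass between Treg and Tconv. Averaged over strains, the NADPH-forming Pgd changed by -0.17 ± 0.11, and the carbon-exchanging Tkt and Taldo1 by 0.19 ± 0.10 and -0.07 ± 0.11. Tkt passed in B6g7 with the actin covariate (0.32, adjusted p = 0.0441). In B6g7 the Pgd arrays of Treg (10.31 to 10.69) lay just below those of Tconv (10.71 to 10.87), a change of -0.35 ± 0.15 with an adjusted p of 0.387.

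Hif1a, the oxygen-regulated factor that drives many glycolytic genes, was at 0.23 ± 0.13 averaged over strains by its brightest probe set (adjusted p = 0.49), while 1416035_at rose by 0.53 ± 0.08 (adjusted p = 0.00084) and passed in B6g7 (0.58, 0.0104) and in NOD (0.49, 0.0312). The other 2, 1431981_at and 1448183_a_at, did not pass, at 0.08 and 0.11. With the mean of its probe sets in place of the brightest, Hif1a passed averaged over strains (0.24, adjusted p = 0.0214). Myc, which raises glycolytic genes in dividing T cells, was at 0.48 ± 0.16 averaged over strains (adjusted p = 0.139), with 0.68 ± 0.23 in B6g7 (0.194) and 0.28 ± 0.23 in NOD (0.825). Its B6g7 Treg arrays stood at 7.96, 8.36 and 8.88, in the order of their actin differences of 2.66, 4.26 and 4.58, against 7.72, 7.71 and 7.74 in Tconv. Without Treg array 1 of B6g7 the averaged change was 0.59 (adjusted p = 0.0337), while in the fit that held the actin covariate it was 0.41 (0.00619) and the B6g7 change 0.73 (0.00152). With array weights the B6g7 change was 0.67 (0.0285) and the averaged one 0.48 (0.0266). No cell cycle gene of 14 measured was called between Treg and Tconv averaged over strains, and 1 had an unadjusted p under 0.05.

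Promoters are shown for Pdk1, Hk2, Eno2 and Ldhb, which are some of the called genes, and for Ldha, whose level did not pass. They were picked by hand, so that the letters a HIF or MYC factor is known to recognise can be set beside the changes. Each run covers 250 bases before to 50 after the annotated start (RefSeq, GRCm38.p6), 5′ to 3′ along the gene. Capitals mark ACGTG or GCGTG, the core of HIF sites, on either strand, the former lying inside CACGTG, the MYC-type E-box, wherever that occurs. They are Pdk1 at chr2:71872974-71873273 on the plus strand, Hk2 at chr6:82774405-82774704, Eno2 at chr6:124769624-124769923 and Ldhb at chr6:142507908-142508207 on the minus strand, and Ldha at chr7:46845554-46845853 on the plus strand; Pdk1 and Ldha have a second annotated start that is not shown.
Pdk1: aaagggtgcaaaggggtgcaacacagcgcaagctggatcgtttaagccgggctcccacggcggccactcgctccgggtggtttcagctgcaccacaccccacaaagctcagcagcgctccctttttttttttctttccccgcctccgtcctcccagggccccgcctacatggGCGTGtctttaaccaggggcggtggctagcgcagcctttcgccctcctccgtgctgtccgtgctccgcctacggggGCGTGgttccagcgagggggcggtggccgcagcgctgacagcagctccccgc
Hk2: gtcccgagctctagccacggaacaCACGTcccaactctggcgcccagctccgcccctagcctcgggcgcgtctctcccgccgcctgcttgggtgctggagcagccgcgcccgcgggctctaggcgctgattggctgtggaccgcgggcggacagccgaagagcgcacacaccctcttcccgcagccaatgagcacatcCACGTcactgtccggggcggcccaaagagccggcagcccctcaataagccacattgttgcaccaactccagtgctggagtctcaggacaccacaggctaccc
Eno2: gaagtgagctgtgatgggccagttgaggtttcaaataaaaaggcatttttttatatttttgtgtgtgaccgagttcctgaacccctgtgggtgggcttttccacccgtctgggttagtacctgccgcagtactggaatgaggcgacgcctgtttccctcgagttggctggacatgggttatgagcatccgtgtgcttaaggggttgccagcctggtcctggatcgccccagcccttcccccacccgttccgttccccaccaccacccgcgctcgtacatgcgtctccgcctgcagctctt
Ldhb: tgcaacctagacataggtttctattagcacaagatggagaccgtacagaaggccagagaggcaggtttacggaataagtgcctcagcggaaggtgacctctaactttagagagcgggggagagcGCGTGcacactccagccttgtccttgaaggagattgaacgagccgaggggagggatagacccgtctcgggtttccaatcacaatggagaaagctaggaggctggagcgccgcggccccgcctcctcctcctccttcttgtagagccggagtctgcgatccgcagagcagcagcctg
Ldha: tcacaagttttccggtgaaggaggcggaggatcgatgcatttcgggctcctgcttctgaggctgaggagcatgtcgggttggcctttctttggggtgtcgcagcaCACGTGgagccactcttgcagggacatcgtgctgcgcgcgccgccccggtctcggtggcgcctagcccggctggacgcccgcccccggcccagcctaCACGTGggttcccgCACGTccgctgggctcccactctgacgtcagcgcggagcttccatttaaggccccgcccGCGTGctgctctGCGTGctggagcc
The core occurred in at least 1 window of 24 of the 26 measured genes that have one (92.3%), against 46.7% of all 27025 genes. CACGTG occurred in at least 1 window of 5 of 26 (19.2%), against 8.09% of genes. Counted per window and not per gene, the shares over all 32851 windows were 43.8% and 7.15%. Some genes have several windows, which gives more places for a match, and the number of windows per gene was not matched. Both forms of the core contain the letters CG, and how often CG occurs in the windows was not matched either. Ldha held such letters in 5 separate places, 2 of them CACGTG, while Eno2, which rose, held neither in this window. The windows of Pfkfb4, Pgam1 and Pfkp, also called but not shown, held the core in 1, 3 and 4 places. Slc2a3 and Myc have no window in the table. A match is a description of letters, and the lists of matching genes and of called genes were not set against each other in a test.

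Between NOD and B6g7, 3 of 28 genes were called in Tconv (10.7%, against 3.05% of all genes) and 2 of 28 in Treg (7.14%, against 3.33%). In Tconv Pfkp was higher in NOD (1.6% of all genes were) and Ldhb and Pdk1 were lower (1.45%). In Treg the same Ldhb and Pdk1 were lower (1.49%) and none was called higher (1.84%). In Treg, 6 of the 28 had an unadjusted p under 0.05, again without a share of all genes beside it. Same-numbered arrays deviated together here too, and with the replicate number as a block Pfkp (0.38, adjusted p = 0.0273) and Eno2 (0.65, adjusted p = 0.0161) were called higher in NOD Treg, making 4. The median difference of the 28 was 0.03 in Tconv and -0.07 in Treg, beside 0.03 and 0.00 over all genes. These comparisons use the same arrays as those between Treg and Tconv. Beside the higher Ikzf2 and Gpr83 in NOD Tconv, the NK marker Nkg7 was higher in NOD Treg (0.65), and the part of these in the differences was not tested.

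Pdk1 differed most. The signal of its brightest probe set was 6.57-fold lower in NOD Tconv (log2 difference -2.72 ± 0.21, adjusted p = 7.11e-06) and 4.83-fold lower in NOD Treg (-2.27 ± 0.21, adjusted p = 3.56e-05). For this and the other strain differences, whether the probes bind RNA of both strains equally was not tested. The lowest B6g7 array, at 11.55, was above the highest NOD array, at 10.5. All 4 Pdk1 probe sets were called lower in NOD in both cell types, the other 3 with differences of -2.96, -3.94 and -1.88 in Tconv and of -2.77, -2.88 and -1.53 in Treg. In 1434974_at the NOD means were dim, at 4.66 and 4.31 against 8.61 and 7.19 in B6g7, so the size of its difference is uncertain. The calls held without each of the 12 arrays. The other pyruvate dehydrogenase kinases, Pdk2, Pdk3 and Pdk4, were not called. Pdk2 and Pdk3 differed by -0.16 and 0.06 in Tconv and by 0.06 and -0.12 in Treg. Pdk4 was dim in all 4 groups, where a small difference could be missed.

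**Figure D3:**
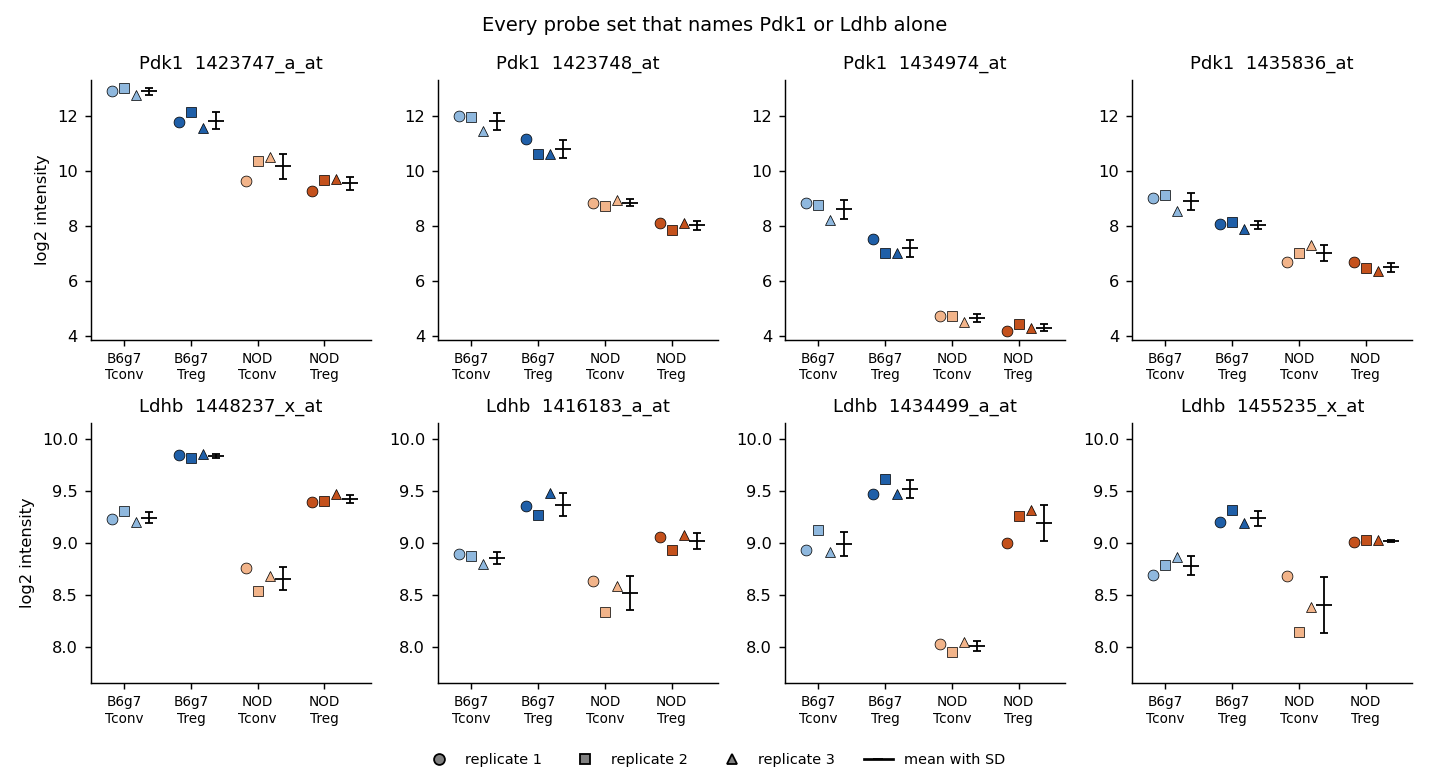
Log2 intensity (y axis, shared within a row) in each of the 12 arrays for every probe set that names Pdk1 (upper row) or Ldhb (lower row) alone, by group (x axis). Symbols mark the replicate number and bars the mean with SD of 3 arrays; all Pdk1 sets are lower in NOD, and all Ldhb sets are higher in Treg.

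Ldhb was 1.5-fold lower in NOD Tconv (-0.59 ± 0.08, adjusted p = 0.000982) and 1.34-fold lower in NOD Treg (-0.42 ± 0.08, adjusted p = 0.0118). The Treg call was lost in a fit of the 6 Treg arrays alone (adjusted p = 0.0569) and without the 4 arrays numbered 1 (0.151). Its other probe sets had differences of -0.34, -0.98 and -0.38 in Tconv, of which -0.98 for 1434499_a_at passed (adjusted p = 9.78e-05), and of -0.35, -0.33 and -0.22 in Treg, none of which did.

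Pfkp, the platelet-type phosphofructokinase chain (chr13:6579874-6649060), was higher in NOD Tconv. Its arrays stood at 9.55, 9.44 and 9.37 in B6g7 Tconv and at 10.05, 9.97 and 10.16 in NOD Tconv. In Treg they stood at 9.49, 9.26 and 9.45 in B6g7 and at 9.85, 9.64 and 9.86 in NOD, and neither pair of groups overlapped. The difference was 1.52-fold in Tconv (0.61 ± 0.10, adjusted p = 0.00372), held without each of the 12 arrays, and was 0.38 ± 0.10 in Treg (adjusted p = 0.0693; 0.00387 with array weights and 0.0237 after quantile normalization). The other 2 Pfkp probe sets, with means of 5.02 and 5.65, did not pass, and with the mean of all 3 in place of the brightest the Tconv difference was 0.28 (adjusted p = 0.212).

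Further strain differences in Treg passed only in some alternative fits. Eno2 stood at 6.65 to 7.40 in the NOD Treg arrays, above the 6.07 to 6.60 of B6g7. Its difference of 0.65 ± 0.18 did not pass with all arrays (adjusted p = 0.0959), but it passed with the replicate block (0.0161), with array weights (0.75, 0.0132), with the actin covariate (0.73, 0.00206) and without NOD Treg array 3 (0.82, 0.036). Mpc1 had a difference of -0.51 ± 0.19 in Treg (adjusted p = 0.271), and -0.73 (0.026) without NOD Treg array 1, which stood at 7.35 against 6.64 and 6.70. Among the 20 genes called nowhere, the differences ran from -0.43 (Pgd) to 0.31 (Myc) in Tconv and from -0.51 (Mpc1) to 0.09 (Hk1) in Treg. Slc2a3 differed by -0.02 (95% interval -0.23 to 0.19) in Tconv and by -0.04 (-0.25 to 0.17) in Treg.

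**Figure D4:**
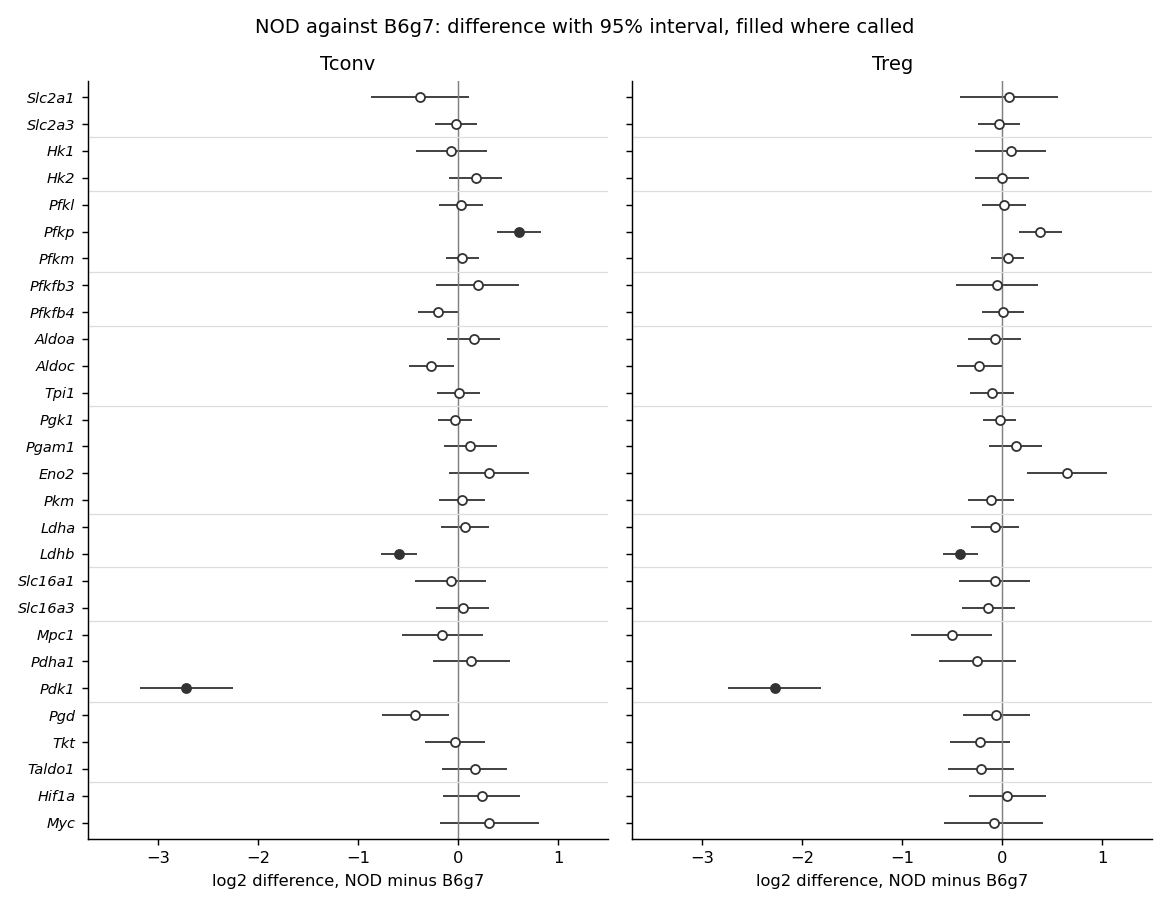
Log2 difference of NOD from B6g7 (x axis) for each of the 28 measured genes (y axis) in Tconv and in Treg. Points are the fitted differences, bars their 95% intervals without correction for multiple tests, and filled points the called genes; Pdk1 lies far to the left in both panels.

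The ratio of Treg to Tconv was the measure the series text set side by side between strains, and for these genes its difference was not detected. Of the 28 genes 0 were called by limma, against 0.11% of all genes (20 genes), 0 had an unadjusted p under 0.05, and 0 were called under any of the alternative fits. Differences, as the NOD change minus the B6g7 change, ran from -0.40 ± 0.32 for Myc to 0.45 ± 0.32 for Slc2a1. For Pdk1 the value was 0.44 with a 95% interval from -0.21 to 1.10, for Eno2 0.34 (-0.22 to 0.90), for Ldhb 0.17 (-0.08 to 0.42) and for Hk2 -0.18 (-0.55 to 0.20). The other probe sets gave 0.18, 1.06 and 0.35 for Pdk1 and -0.01, 0.65 and 0.16 for Ldhb. The unadjusted interval was above 0 in 1434974_at for Pdk1 (0.53 to 1.60, with dim NOD means) and in 1434499_a_at for Ldhb (0.34 to 0.97, not dim), and neither passed (adjusted p = 0.388 and 0.329). Differences within these intervals could not be resolved with 3 arrays per group.

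Further genes of the same routes were counted in 6 lists. Of 23 other glycolysis genes, averaged over strains, 1 rose and 4 fell; of 10 other pentose phosphate genes 1 rose; of 15 around pyruvate dehydrogenase 1 fell; and of 15 transporter genes 1 rose and 2 fell. Of 20 partners and opponents of HIF and MYC, 3 rose and 1 fell, and of 13 HIF targets outside glycolysis 4 rose and 1 fell. The background is the 4.46% of all genes that rose and 3.03% that fell. Between NOD and B6g7, limma called none of them in Tconv and 5 in Treg. Of all genes, 3.05% and 3.33% were called there. In Tconv 1 to 4 of each list had an unadjusted p under 0.05, without a share of all genes at that cut-off.

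Eno3, the muscle enolase, rose as Eno2 did: its arrays stood at 7.03, 6.73 and 6.48 in B6g7 Tconv and at 7.95, 7.86 and 7.70 in Treg, and at 6.48, 6.47 and 6.73 in NOD Tconv and 8.70, 8.34 and 8.60 in Treg. The change was 1.09 ± 0.14 in B6g7 (adjusted p = 0.000619) and 1.99 ± 0.14 in NOD (3.55e-06), a difference of 0.90 ± 0.20 that did not pass (0.353). Gpd2, the mitochondrial glycerol phosphate dehydrogenase, fell by 0.67 in both strains (adjusted p = 0.00805 and 0.00781). Gpd1l, a cytosolic relative, fell by 0.43 averaged over strains (0.00286). Tigar, a phosphatase that opposes glycolysis, and Pfkfb2 fell by 0.24 and 0.29 (0.0209 and 0.021), calls that held in 7 and 5 of 12 fits with 1 array left out. Tktl1, a transketolase relative, rose by 1.07 averaged (0.00187) and by 1.49 in NOD (0.00377), while its change of 0.64 in B6g7 was not called. Its set, 1420064_s_at, carries the s suffix, so the limit given for Slc2a3 applies.

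Among transporter genes, Emb, the chaperone embigin of lactate carriers, fell by 1.19 averaged over strains (adjusted p = 2.51e-06) and Slc16a10, an aromatic amino acid carrier of the lactate carrier family, by 0.92 (1.88e-05). Arrdc4, an arrestin that curbs glucose uptake, rose by 0.39 (0.0219, held in 6 of 12 fits with 1 array left out). In the list around pyruvate dehydrogenase, Me2, the mitochondrial malic enzyme, fell by 0.43 (0.0459, held in 3 of 12). Epas1, which encodes HIF-2α, fell furthest: its arrays stood at 10.07, 9.67 and 9.34 in B6g7 Tconv against 6.94, 6.70 and 6.64 in Treg, and at 9.28, 9.13 and 9.48 in NOD Tconv against 7.34, 6.95 and 7.34 in Treg. That is -2.93 ± 0.18 in B6g7 (adjusted p = 5.78e-07) and -2.09 ± 0.18 in NOD (1.52e-05); its dimmer probe set, 1449888_at, did not pass (-0.17 averaged, 0.433).

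The MYC antagonists Mxd1, Mxd4 and Mxi1, which compete for the partner Max, rose by 1.71, 0.85 and 0.53 averaged over strains (adjusted p = 1.48e-07, 0.0451 and 0.00182). The call for Mxd4 held in 2 of 12 fits with 1 array left out. Of the HIF targets outside glycolysis, the repressor Bhlhe40 rose by 1.48, Ndrg1 by 0.88, the collagen prolyl hydroxylase chain P4ha1 by 0.54 and the mitophagy factor Bnip3 by 0.38, while P4ha2 fell by 1.0 (adjusted p = 2.22e-05, 7.9e-05, 0.00183, 0.00365 and 4.24e-06). The Ndrg1 set, 1420760_s_at, carries the s suffix described for Slc2a3. Apart from Epas1, the further genes are described from their brightest probe set only. In Treg, Eno3 (0.71), Arrdc4 (0.54), Ndrg1 (0.66) and Bhlhe40 (0.87) were higher in NOD than in B6g7 and Gpd1l was lower (-0.49), and each of these calls ended without at least 1 array, with adjusted p values up to 0.0713, 0.178, 0.0822, 0.123 and 0.101.

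**Figure D5:**
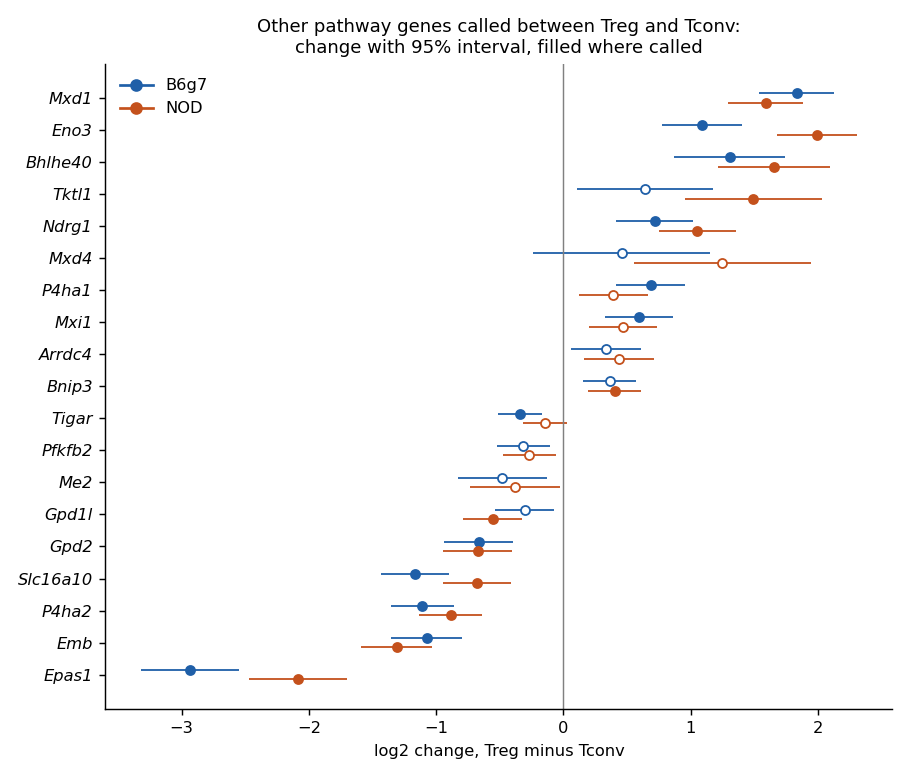
Log2 change from Tconv to Treg (x axis) in B6g7 and NOD for the 19 further pathway genes (y axis) called between Treg and Tconv in at least 1 of the B6g7, NOD and averaged comparisons. Points are fitted changes, bars their 95% intervals without correction for multiple tests, and filled points were called in that strain; Mxd1, Eno3 and Bhlhe40 lie furthest to the right and Epas1 furthest to the left.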

How the data were processed

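The authors deposited intensity values made with RMA, per the submitters' processing notes, 1 for each probe set on each array; their linear scale was read from the values, and the RMA software is not given in the sources used here. RNA was isolated with Trizol and amplified in 2 rounds, per the labels' protocols. The deposited values were put on the log2 scale (2.53 to 14.73) without further normalization or filter. All 45037 probe sets outside the 64 controls were tested with limma 3.58.1 in R 4.3.3 (a mean per group over all 12 arrays, eBayes), with Benjamini-Hochberg adjustment across them. The platform annotation names 1 gene for 34945 probe sets; the Entrez IDs of 34741 were in the RefSeq table of GRCm38.p6, which changed 0 symbols and gave positions and promoters. The fit was tested on simulated data. Members, further gene lists and alternatives were chosen with earlier results of these data known. All measured members are named; further list genes are named where called. Replicate numbers come from the labels: same-numbered arrays deviated together in every pair for Treg against Tconv in NOD (r = 0.56, 0.31 and 0.40) and for the strains in Treg (0.67, 0.34 and 0.30), so the block is given there, but not in B6g7 (lowest r -0.08) or for the strains in Tconv (-0.04).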

Additional observations from a re-analysis of the deposited data

How the results depend on the processing

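The counts of called genes kept within 1.5 times the main count in 121 of 130 alternative fits. The exceptions were, for Treg against Tconv in B6g7 (6), 3 without Tconv array 2, for the same in NOD (3), 5 with the replicate block, 6 with the actin difference as a covariate and 5 with the mean of a gene's probe sets, and for NOD against B6g7 in Treg (2), 4 with the replicate block, 4 with array weights, 4 with the actin covariate, 1 in a fit of those groups only and 1 without the 4 arrays numbered 1; the cause was not tested. Leaving out each array in turn gave 3 to 6 calls in B6g7, 3 to 4 in NOD, 6 to 8 averaged, always 3 between strains in Tconv, 2 to 3 in Treg and always 0 for the difference of changes. The replicate block gave 8 calls in B6g7 (Pgam1 and Myc added), 10 averaged (Slc2a1, Aldoa and Myc added) and 3 between strains in Tconv, where the numbers do not pair all arrays. No value of a called gene changed its sign; of the single gene values 20 lost and 47 gained a call, and 3735 stayed on their side of the threshold. Quantile normalization and median centring moved the median of all genes by under 0.1. The filter on dim probe sets removed 1 member, Slc16a3.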
